A study of Macaca fascicularis with 2 samples.

Results

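Valine and isoleucine are broken down in mitochondria by enzymes that, after the shared transaminase and keto acid dehydrogenase, work on separate branched acyl-CoA esters. The isoleucine arm ends in acetyl-CoA and propionyl-CoA, and the valine arm in propionyl-CoA by way of 3-hydroxyisobutyrate, a free acid that can leave the muscle fibre. Propionyl-CoA from both arms is carboxylated to methylmalonyl-CoA, epimerised and then isomerised to succinyl-CoA, which enters the tricarboxylic acid cycle. The 10 genes described here encode most of these distal steps. The thiolase of the isoleucine arm and the mutase that makes succinyl-CoA are not among them. They are ACADSB and HSD17B10 of the isoleucine arm, ECHS1 of both arms, ACAD8, HIBCH, HIBADH and ALDH6A1 of the valine arm, and PCCA, PCCB and MCEE of propionyl-CoA disposal. They were taken by their gene symbol from the 28175 genes of the deposited files, all 10 were found, and all 10 passed the filter on low values, a mean of at least 1 CPM (CPM is the count of a gene scaled to a common library size) over both libraries.

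The data are 2 RNA sequencing libraries from gastrocnemius, a calf muscle, of the cynomolgus macaque, Macaca fascicularis. One library is labelled non-lean and comes from a high fat diet, and the other is labelled lean and comes from a chow diet. The study asks how gene expression differs between obese and lean skeletal muscle. The labels do not say how many animals stand behind a library, nor give their age, their sex or the length of the diet. Diet, body condition, animal and library preparation cannot be told apart with 1 library per group, no replicate error can be given, and no p-value is given.

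The non-lean library held 12731974 counts and the lean library 15983348, so 1 count was worth 0.0748 CPM in the non-lean and 0.0657 CPM in the lean library. Differences are given as a log2 ratio, the non-lean level divided by the lean one, with the 95% interval that counting error alone allows in brackets. A positive ratio means a higher level in the non-lean library. Defining skeletal muscle genes were abundant in both libraries, with 8 of 8 markers found and a summed level of 163238 CPM in the non-lean and 214484 CPM in the lean library. Markers of liver and kidney, whose cells are rich in some of these enzymes, had few counts. The 5 hepatocyte markers summed to 2.24 CPM in the non-lean and 3.75 CPM in the lean library, with ALB at 0 and 11 counts, and the 3 kidney markers to 0.523 CPM and 0.197 CPM.

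The distal enzymes did not move as a block. The valine-specific genes HIBADH and ALDH6A1 were lower in the non-lean library by 1.44-fold and 1.55-fold, the propionate genes MCEE and PCCB were higher by 1.34-fold and 1.20-fold, and the rest lay between, although PCCB turned below 0 when ribosomal protein genes set the scale. Intervals lay above 0 for 3 of the 10 members, where 25.8% of the 13707 tested genes had such an interval, and below 0 for 3, where the share over all tested genes was 28.8%. The intervals of the other 4 held 0, against 45.5% of tested genes. No member was 2-fold apart, a size that 12.1% of tested genes reached in either direction and 6.29% of the 5994 genes with a summed count in the members' range of 298 to 2665. The median ratio of the members was -0.04, beside -0.01 over all tested genes. These counts and the median are near those of all genes, and 7 of the 10 ratios lay in the middle 50% of all tested genes, so that the spread of the members was not wider than that of genes at large. Scaling by total counts lifts the median of all tested genes to 0.13 and gives 4 intervals above and 2 below 0 among the members. The shares over all tested genes are then 35.0% above and 20.9% below 0.

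**Figure D1:**
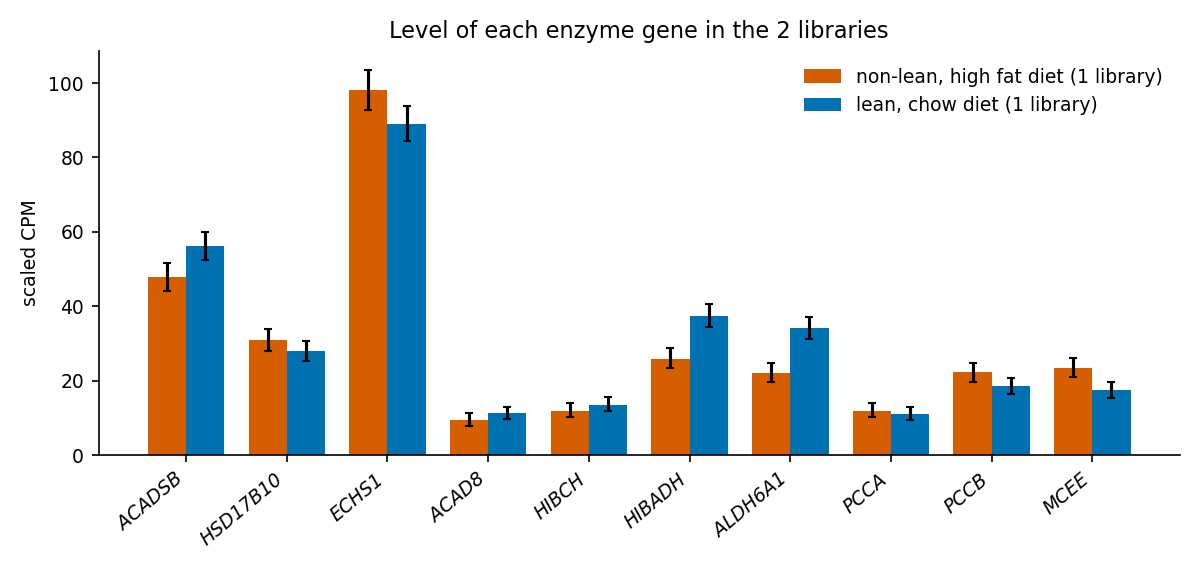
Scaled CPM of each of the 10 genes in the non-lean library (orange) and the lean library (blue), in pathway order, with 1 library per bar and 95% Poisson counting intervals as error bars. HIBADH and ALDH6A1 stand lower in the non-lean library, at 25.9 and 22.0 CPM against 37.5 and 34.2 CPM in the lean library, and MCEE stands higher, at 23.4 CPM against 17.4 CPM.

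In the isoleucine arm the first step was lower and the third was not separable from no difference. ACADSB, the short/branched-chain acyl-CoA dehydrogenase that oxidises 2-methylbutyryl-CoA, had 640 counts or 47.9 CPM in the non-lean library and 854 counts or 56.1 CPM in the lean library. Its ratio was -0.23 [-0.38, -0.08], which held 0 when libraries were scaled by total counts, at -0.088 [-0.24, 0.061]. HSD17B10, the dehydrogenase that makes 2-methylacetoacetyl-CoA and is also a subunit of mitochondrial RNase P, had 412 counts or 30.8 CPM in the non-lean and 425 counts or 27.9 CPM in the lean library, a ratio of 0.14 [-0.06, 0.34]. Its interval lay above 0 with total counts, at 0.28 [0.084, 0.48]. The thiolase ACAT1, which follows HSD17B10 and cleaves its product and also serves the ketone bodies, had 916 counts in the non-lean and 1194 in the lean library, a ratio of -0.20 [-0.32, -0.07]. The ratio of ACAT1 was lower than that of HSD17B10 by 0.34 on the log2 scale (difference -0.34 [-0.57, -0.11]), a comparison in which the scaling of the libraries cancels. ACAT1 and HSD17B10 thus differed in the size of their ratios beyond counting error. So did 52.1% of all pairs of tested genes with counts in both libraries, and 64.4% of pairs with summed counts in the members' range.

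ECHS1, the short-chain enoyl-CoA hydratase, adds water to the unsaturated esters of both arms and also serves fatty acid oxidation. It had 1311 counts or 98.0 CPM in the non-lean library and 1354 counts or 89.0 CPM in the lean library. The ratio was 0.14 [0.03, 0.25], a 1.10-fold difference, and its direction turned to -0.0093 when the tricarboxylic acid cycle genes were used as the scale and to -0.19 with ribosomal protein genes. ECHS1 stood at percentile 61.7 of the ratios of all tested genes and HSD17B10 at percentile 61.8, both inside the middle 50% of these genes.

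The 4 valine-specific genes all had ratios below 0, where the median over all tested genes was -0.01. The last pair of the arm had intervals below 0, as had 28.8% of all tested genes. ACAD8 and HIBCH stood at percentiles 33.7 and 37.3 of the ratios of tested genes. A low ratio was not particular to this arm, since ACADSB of the isoleucine arm, at -0.23, stood at percentile 34.3. ACAD8, the isobutyryl-CoA dehydrogenase that opens the arm, had 127 counts or 9.50 CPM in the non-lean and 171 counts or 11.2 CPM in the lean library, a ratio of -0.24 [-0.59, 0.10]. HIBCH, the hydrolase that releases 3-hydroxyisobutyrate from coenzyme A, had 160 counts or 12.0 CPM in the non-lean and 207 counts or 13.6 CPM in the lean library, a ratio of -0.18 [-0.49, 0.12]. Both intervals held 0 with trimmed mean scaling, and both lay below 0 with tricarboxylic acid cycle genes as the scale, at -0.39 [-0.73, -0.052] for ACAD8 and -0.33 [-0.64, -0.030] for HIBCH. They also lay below 0 with ribosomal protein genes as the scale and when fewer transcript models were summed. Over all tested genes, 38.7% of intervals lay below 0 with the tricarboxylic acid cycle scale and 51.6% with the ribosomal scale. Summing fewer models leaves out counts assigned to other models of the same gene.

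HIBADH, the dehydrogenase that oxidises 3-hydroxyisobutyrate, had 347 counts or 25.9 CPM in the non-lean library and 570 counts or 37.5 CPM in the lean library. It was lower in the non-lean library by 1.44-fold, a ratio of -0.53 [-0.73, -0.33] at percentile 19.0 of tested genes. ALDH6A1, the methylmalonate semialdehyde dehydrogenase that makes propionyl-CoA and also acts on the thymine product, had 294 counts or 22.0 CPM in the non-lean and 520 counts or 34.2 CPM in the lean library. It was lower by 1.55-fold, a ratio of -0.64 [-0.85, -0.43] at percentile 15.3. HIBADH and ALDH6A1 had intervals below 0 under each of the 5 ways of scaling the libraries. Their ratios ran from -0.86 to -0.39 for HIBADH and from -0.97 to -0.49 for ALDH6A1. No ratio of the 4 valine-specific genes turned positive under any of them. Each scaling shifts all genes by the same amount, and only total counts shifted them up, with HIBCH then at -0.042. Under the other scalings these ratios could only fall, so their sign was given by the reported values. The ratio of ALDH6A1 was below that of HIBCH by 0.45 on the log2 scale (difference -0.45 [-0.81, -0.09]) and did not separate from that of HIBADH (difference -0.11 [-0.39, 0.18]). In the reference annotation, whose gene positions may differ from those behind the files, BBOF1 overlaps ALDH6A1. BBOF1 had 22 counts in the non-lean and 28 in the lean library, far fewer than ALDH6A1. In the same annotation HIBADH overlaps long non-coding RNA genes and ACADSB overlaps another protein-coding gene, whose counts are not given here.

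**Figure D2:**
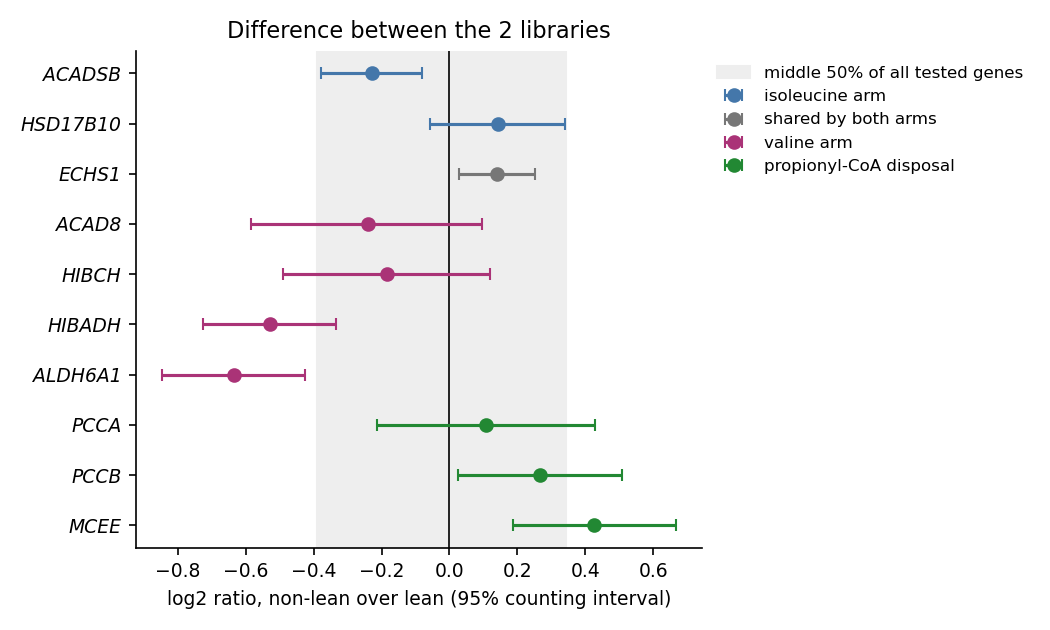
The log2 ratio, non-lean over lean, for each of the 10 genes, coloured by arm, with 95% counting intervals that hold no variation between animals. The grey band holds the middle 50% of all tested genes, from -0.39 to 0.34. The 4 valine-arm points lie left of 0, the 3 propionate points right of 0, and the points of ALDH6A1 and HIBADH lie left of the band; other scalings move PCCA and PCCB below 0.

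The 3 members of propionyl-CoA disposal had ratios above 0, although PCCA and PCCB did not keep this under every scaling. The intervals of PCCB and MCEE lay above 0, as did those of 25.8% of all tested genes. The mutase gene MMUT, which follows MCEE and is not a member, had a ratio of -0.20 [-0.48, 0.09]. It is named after its values were seen. PCCA, the subunit of propionyl-CoA carboxylase that carries biotin, had 160 counts or 12.0 CPM in the non-lean and 169 counts or 11.1 CPM in the lean library, a ratio of 0.11 [-0.21, 0.43]. PCCB, the carboxyltransferase subunit, had 297 counts or 22.2 CPM in the non-lean and 281 counts or 18.5 CPM in the lean library, a ratio of 0.27 [0.03, 0.51]. MCEE, the epimerase that turns methylmalonyl-CoA into the form the next enzyme accepts, had 313 counts or 23.4 CPM in the non-lean and 265 counts or 17.4 CPM in the lean library, a ratio of 0.43 [0.19, 0.67] at percentile 79.5 of tested genes.

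MCEE kept a ratio above 0 under each of the 5 scalings, from 0.094 to 0.57, but with ribosomal protein genes as the scale its interval held 0, at 0.094 [-0.15, 0.34]. PCCA turned to -0.041 with tricarboxylic acid cycle genes as the scale and to -0.22 with ribosomal protein genes, and PCCB to -0.066 with ribosomal protein genes. The ratio of MCEE exceeded that of ALDH6A1 by 1.06 [0.75, 1.37] and that of HIBADH by 0.95 [0.65, 1.26] on the log2 scale. Among the 45 pairs of members, the interval of the difference between the ratios excluded 0 for 25, a share of 55.6%. That share was 52.1% over all pairs of tested genes with counts in both libraries and 64.4% over pairs of genes with summed counts in the members' range, so the members' share was near that of genes at large. GGACT, which overlaps PCCA in the reference annotation, had 94 counts in the non-lean and 171 in the lean library, a ratio of -0.67 [-1.06, -0.31]. Pseudogenes and a long non-coding RNA gene also overlap PCCA there, and their counts are not given here. Reads of overlapping genes could not be told apart by strand here, since no strand-marking step is named in the protocol.

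The shares of the 10 genes' own counts do not depend on how the libraries are scaled. The valine-specific genes held 22.9% (95% Clopper-Pearson interval 21.6 to 24.2) of the 4061 member counts in the non-lean library, and 30.5% (29.2 to 31.8) of the 4816 member counts in the lean library. The propionate genes held 19.0% (17.8 to 20.2) in the non-lean and 14.8% (13.9 to 15.9) in the lean library, and ECHS1 held 32.3% (30.8 to 33.7) and 28.1% (26.8 to 29.4). The isoleucine genes ACADSB and HSD17B10 together held 25.9% (24.6 to 27.3) in the non-lean and 26.6% (25.3 to 27.8) in the lean library. The valine, propionate and ECHS1 shares were apart beyond counting error, and the isoleucine share was not. These shares divide 1 total, so a lower share of the valine genes raises those of the others. The ratio of ECHS1 itself was 0.14 and turned below 0 with the tricarboxylic acid cycle and ribosomal scales. How often shares of other gene sets lie this far apart was not counted. A longer transcript gives more counts, so these shares set a gene against itself in the other library and give no order of the genes by abundance.

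The 2 carboxylase subunits were compared as a pair, since they form 1 enzyme. PCCA made up 35.0% (30.6 to 39.6) of the PCCA and PCCB counts in the non-lean library and 37.6% (33.1 to 42.2) in the lean library, and the ratios of PCCA and PCCB differed by -0.16 [-0.55, 0.23]. The sister enzyme of the leucine arm is methylcrotonyl-CoA carboxylase, with MCCC1 as its biotin subunit and MCCC2 as its carboxyltransferase subunit. MCCC1 made up 31.4% (26.8 to 36.3) of the pair in the non-lean library and 46.6% (41.9 to 51.4) in the lean library. MCCC1 was lower at -0.58 [-0.92, -0.25] and MCCC2 higher at 0.35 [0.09, 0.61]. The ratio of PCCA exceeded that of MCCC1 by 0.69 [0.24, 1.14] on the log2 scale, while those of PCCB and MCCC2 differed by -0.082 [-0.43, 0.26].

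The acyl-CoA dehydrogenases could be set side by side in the same way, since each arm opens with its own. ACADSB made up 83.4% (80.6 to 86.0) of the ACADSB and ACAD8 counts in the non-lean and 83.3% (80.9 to 85.6) in the lean library, and their ratios differed by 0.012 [-0.35, 0.37]. IVD, the isovaleryl-CoA dehydrogenase of the leucine arm, had 381 counts in the non-lean and 764 in the lean library, and its ratio of -0.82 was below that of ACADSB by 0.59 on the log2 scale (difference -0.59 [-0.82, -0.36]). Among the tested fatty acid dehydrogenases of the same family, only ACAD11 was lower, at -0.55. ACADM, ACADS and ACAD9 had intervals above 0, and the interval of ACAD10 held 0. The ratio of ACADS was 0.24 [0.11, 0.36], above that of ACADSB (difference, ACADSB minus ACADS, -0.47 [-0.66, -0.27]). ACADM had 2287 counts in the non-lean and 1211 in the lean library, a ratio of 1.10 [1.003, 1.21], and ACADSB lay below it by 1.33 on the log2 scale (difference -1.33 [-1.51, -1.15]). HADHA, whose product has its own hydratase for long-chain esters, had a ratio of 0.55 [0.47, 0.64], above that of ECHS1 (difference, ECHS1 minus HADHA, -0.41 [-0.55, -0.28]).

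The gene value is the sum of the transcript models in the deposited files, and 5 of the 10 genes had more than 1 model. The single-model genes were ACADSB, HSD17B10, ECHS1, HIBADH and ALDH6A1, so the differences of HIBADH and ALDH6A1 do not rest on how reads were divided among models of 1 gene. The estimated counts of HIBCH moved between models. Its model XM_015432070.1 had 102 estimated counts in the non-lean and 0 in the lean library, whereas XM_015432072.1 had 0 and 59.8 and XM_015432071.1 had 0 and 46.7. The curated model NM_001285352.1 of HIBCH had 33.3 in the non-lean and 75.6 in the lean library, and XM_005573750.2 had 24.7 and 24.9. No single model thus carried the gene total in both libraries.

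PCCA showed the same kind of shift. Its model XM_005586176.2 had 0 estimated counts in the non-lean and 62.4 in the lean library, XM_015439476.1 had 90.5 and 43.2, and XM_005586175.2 had 69.6 and 63.3. With the leading model alone, PCCA was at 1.24 [0.71, 1.81] and HIBCH at -1.005 [-1.65, -0.41], which moves both past 2-fold. With all models summed, PCCA was at 0.11 and HIBCH at -0.18. For PCCB the model NM_001283892.1 made up 88.8% of the estimated counts in the non-lean and 72.7% in the lean library, and with this model alone PCCB was at 0.56 [0.29, 0.83]. For MCEE the leading model XM_015433562.1 made up 65.4% in the non-lean and 63.0% in the lean library. For ACAD8 the leading model XM_005580218.2 had 101 estimated counts in the non-lean and 166 in the lean library, and XM_015435983.1 had 19.9 and 0. Estimated counts of models that share most of their sequence depend on the division of shared reads, so no interval is given for a model's share. The intervals of the leading models treat estimated counts as observed and leave the error of this division out.

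**Figure D3:**
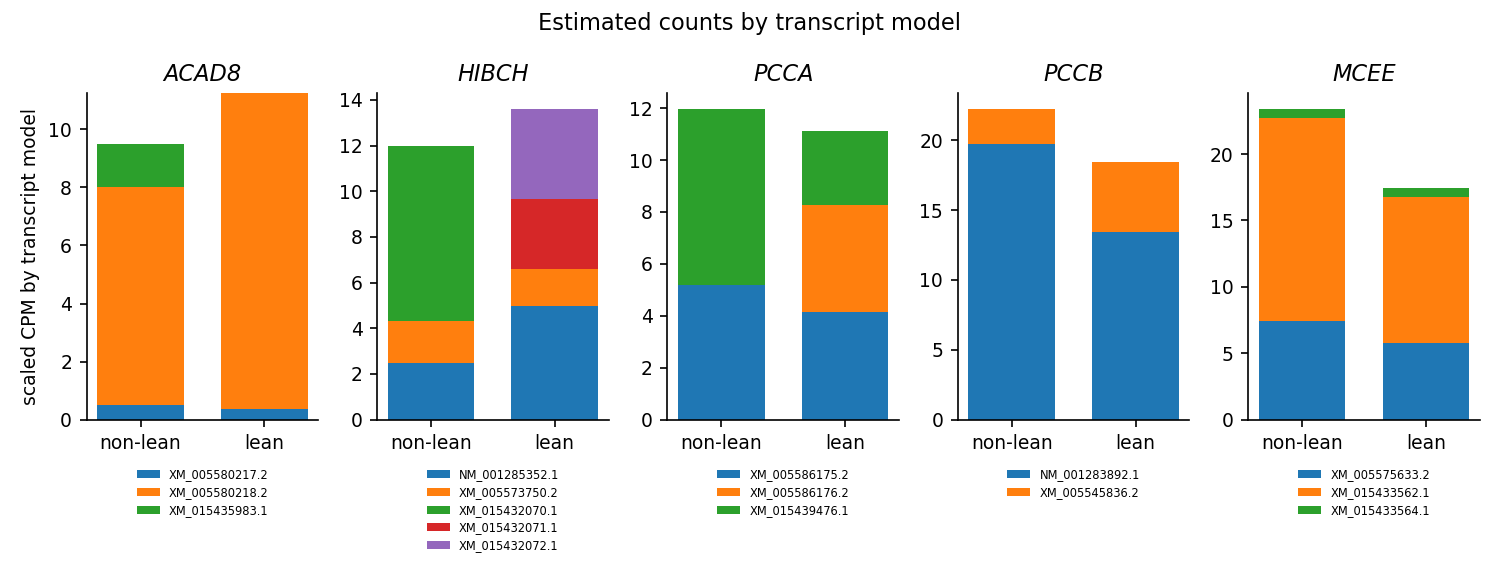
Stacked scaled CPM of each transcript model with any counts, for the 5 genes that have more than 1 model, with the non-lean library at the left of each panel and the lean library at the right. MCEE keeps nearly the same division in both libraries, at 65.4% and 63.0% for its leading model, while models of HIBCH, PCCA and ACAD8 are present in one library and at 0 in the other.

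Upstream of these steps, 5 of the 8 tested genes of the transaminases and the keto acid dehydrogenase had intervals below 0 and 1 above, with a median of -0.50. BCAT2, the mitochondrial transaminase of the study's title, had 393 counts in the non-lean and 689 in the lean library, a ratio of -0.62. ALDH6A1 differed from BCAT2 by -0.012 [-0.29, 0.26] in the size of its ratio and HIBADH by 0.094 [-0.17, 0.36]. Only these members, which have the lowest ratios, were set against BCAT2, so small differences followed from the ratios already given. Of all pairs of tested genes with counts in both libraries, 52.1% differed beyond counting error. The dehydrogenase subunits BCKDHA, BCKDHB and DBT were at 0.13 [-0.05, 0.30], -0.51 [-0.90, -0.14] and -0.25 [-0.71, 0.19], and the list ran from PPM1K, the activating phosphatase, at -1.26 to the shared subunit DLD at 0.29.

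In the leucine arm and ketone body list 4 of 8 intervals lay below and 2 above 0, with a median of -0.16, and OXCT1, the enzyme that activates ketone bodies, was lowest at -0.83. The tricarboxylic acid cycle, which takes up the succinyl-CoA, had 7 of 16 intervals above and 4 below 0 and a median of 0.15. It ran from OGDH at -0.20 to SUCLG1, a subunit of the ligase that uses succinyl-CoA, at 0.37. Fatty acid oxidation relatives of the members had 8 of 13 intervals above and 3 below 0 and a median of 0.26, from ACAD11 at -0.55 to ACADM at 1.10. The medians are descriptions of 2 libraries, with -0.01 over all tested genes.

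Genes of cofactor supply for propionate disposal were also counted. Of 9 genes of cobalamin handling, 2 intervals lay above 0 and none below, and the median was 0.20. They are the mutase MMUT, which follows MCEE, and genes that serve it. TCN2, the cobalamin carrier of plasma, was highest at 0.79 [0.42, 1.17], and MMACHC, which processes cobalamin in the cytosol, was lowest at -0.36 [-0.74, 0.02]. Of 5 other genes of biotin use, 4 intervals lay below 0 and none above. ACACA, the carboxylase of fatty acid synthesis, was lowest at -0.99 [-1.35, -0.65] and ACACB highest at 0.06 [-0.03, 0.14]. HLCS, which attaches biotin to PCCA and the other carboxylases, had a ratio of -0.49 [-0.76, -0.22] and is named after its values were seen. Side branches of valine and thymine breakdown had 3 of 4 tested intervals below 0, with AOX1, an aldehyde oxidase, lowest at -2.25 on 14 counts in the non-lean and 78 in the lean library, and DPYD highest at -0.12 [-0.45, 0.21].

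**Figure D4:**
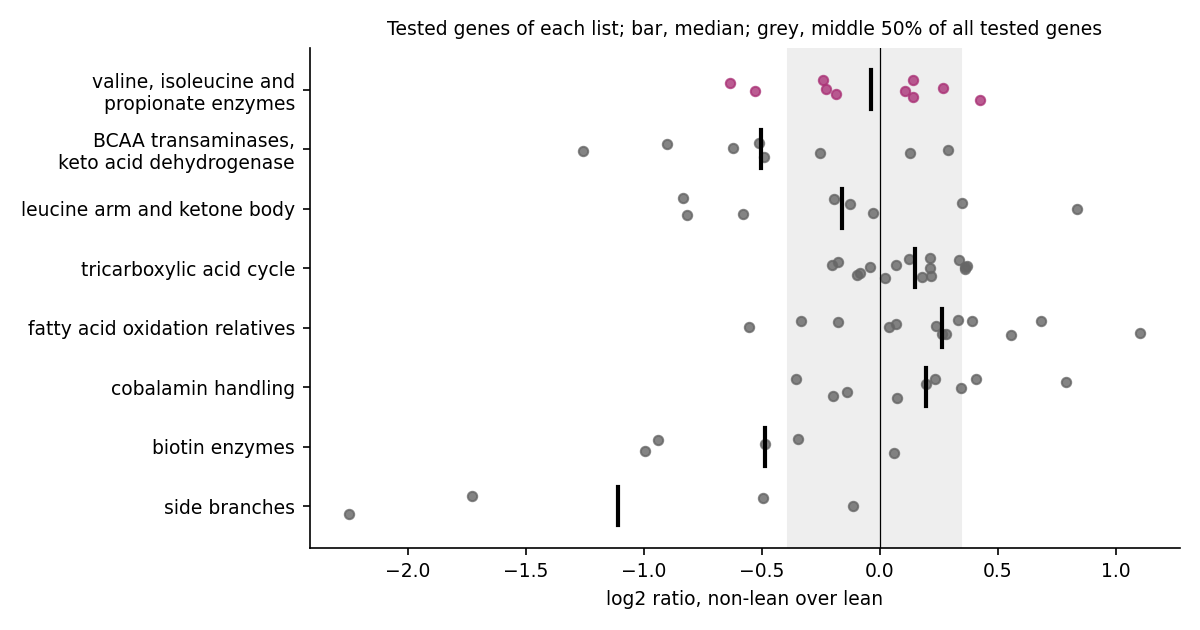
The log2 ratio, non-lean over lean, of each tested gene in the 8 lists, 1 point per gene with random vertical jitter, a bar at each list's median and a grey band over the middle 50% of all tested genes. The 10 distal enzymes (top row) centre near 0 at -0.04, between the transaminase and dehydrogenase list at -0.50 and the fatty acid oxidation relatives at 0.26.

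Several measures of the tissue differed between the libraries beside the enzymes. With trimmed mean scaling, all 8 slow fibre markers had intervals above 0, with a summed level of 17364 CPM in the non-lean and 9917 CPM in the lean library, and 6 of 8 fast fibre markers had intervals below 0, with sums of 77216 CPM and 107531 CPM. Macrophage markers summed to 21.9 CPM in the non-lean and 67.2 CPM in the lean library with 6 of 7 intervals below 0, and fibroblast markers to 411 CPM and 906 CPM with 6 of 6 below 0. Adipocyte markers summed to 651 CPM in the non-lean and 653 CPM in the lean library, mostly from GPD1, a gene muscle also expresses. Of the 5 tested adipocyte markers, 3 had intervals below 0 and were at least 2-fold lower, and FABP4 lay above 0 at 0.26 [0.05, 0.47]. ADIPOQ had 3 counts in the non-lean and 46 in the lean library. Endothelial markers summed to 170 CPM and 228 CPM, with 4 of 5 intervals below 0. No marker of these lists was at 0 in either library. In such bulk samples, fewer cells of a type and less RNA per cell cannot be told apart, and the part of cell or fibre composition in the enzyme ratios was not tested.

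Genes known for short and for long transcripts also stood apart. Of 74 cytosolic ribosomal protein genes, which have short transcripts, 62 intervals lay above 0, with a median of 0.33, and of 17 genes known for very long transcripts 15 lay below 0 and none above, with a median of -0.47. Both lists were chosen after the data were seen. Among the members, HSD17B10, ECHS1 and MCEE, all with ratios above 0, are known from human for short transcripts. The other members, with ratios on both sides of 0, were not sorted by length. Transcript lengths of these models were not used here, and the part of length in the enzyme ratios was not tested.

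**Figure D5:**
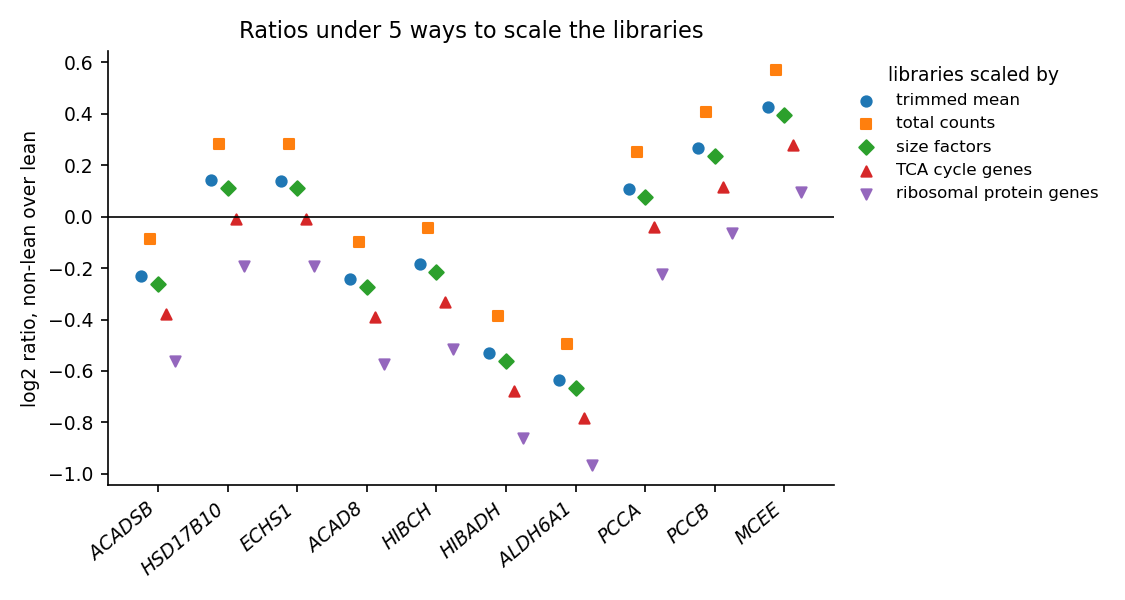
The log2 ratio, non-lean over lean, of each gene under 5 ways of scaling the libraries, marked by symbol; each scaling shifts all genes by the same amount. The ratios of HIBADH and ALDH6A1 stay below 0 and that of MCEE above 0 under all 5, while ECHS1, HSD17B10, PCCA and PCCB have points on both sides of 0.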

How the data were processed

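The authors deposited expected counts, which are estimated read counts per RefSeq transcript model that need not be whole, in 1 file per library with 76183 rows. Tools listed in the submitters' processing notes, with no role, are RSEM 1.3.3, STAR 2.7.8a and Trim Galore 0.6.6. The genome build is not given in the sources used here, and neither are filters. Per the labels' protocols, polyadenylated RNA was copied from random hexamers and read on a BGISEQ-500.

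Rows were summed per symbol and rounded, with 24 date-like symbols separated by accession where possible, using a RefSeq gene table of T2T-MFA8v1.1 for names and overlaps. SDHA and ACADVL had no match by symbol and were not used here. Library scaling used the trimmed mean of M-values (edgeR 4.0.16, R 4.3.3), with factors of 1.05 for the non-lean and 0.952 for the lean library. Ratios used a prior count of 0.5, and their intervals are Clopper-Pearson intervals of the split of the summed count. Intervals of differences between ratios take the normal approximation to Poisson counts. Reads amplified by PCR carry no molecular identifiers and are not independent, so all intervals cover counting error only. A gene was tested with a mean of at least 1 CPM. No test between groups was possible with 1 library each. The computation was tested on simulated counts, with Python 3.11.15, scipy 1.17.1 and matplotlib 3.10.9. The members and lists were chosen with earlier results of these data known. Every member is named, with the highest and lowest tested gene of each pathway list and partners of the members' steps. HADHA, ACADS, ACAD9, ACAD10, MMUT, HLCS, the overlapping genes and some marker genes are named although they fall outside this rule. The value of 1 gene that this rule names is not reported here, although it counts in its list.

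Alternatives were total counts, DESeq2 1.42.0 size factors, scaling by tricarboxylic acid cycle or ribosomal protein genes, a prior count of 2, other filters, and fewer transcript rows.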

Additional observations from a re-analysis of the deposited data

How the results depend on the processing

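Of 90 member ratios recomputed under alternatives, 7 changed sign, and 3 of these were of genes whose reported interval excluded 0. Many of the 90 could not change, so 90 is no measure of stability. The other filters left every member's ratio as reported, and using fewer transcript rows left those of the 5 single-model genes as reported. ECHS1 turned to -0.0093 with tricarboxylic acid cycle genes as the scale and to -0.19 with ribosomal protein genes, and PCCB to -0.066 with the ribosomal genes. HSD17B10 and PCCA, whose reported intervals held 0, turned to -0.0075 and -0.041 on the tricarboxylic acid cycle scale and to -0.19 and -0.22 on the ribosomal scale. These scalings shift every gene by 1 constant. Intervals above 0 numbered 1 with size factors, 1 with the tricarboxylic acid cycle scale and 0 with the ribosomal scale, against 3 as reported. Intervals below 0 numbered 5 with the tricarboxylic acid cycle scale and 6 with the ribosomal scale, against 3 as reported. They numbered 5 with transcript rows of at least 3 counts in each library and with the leading row alone. Both of these settings also gave 4 members above 0. Among all tested genes, size factors gave 23.1% above and 29.5% below 0, and the tricarboxylic acid cycle scale 17.6% and 38.7%. The rows of at least 3 counts gave 28.9% and 29.2%, and the leading row 30.5% and 31.3%. Over all tested genes, the ribosomal scale, added after the data were seen, gives 9.97% above and 51.6% below 0 and moves the member median to -0.37. With the leading row, 2 members, HIBCH and PCCA, were 2-fold apart, where 21.9% of tested genes then were. With no filter 10.5% of genes were 2-fold apart, and with a mean of at least 5 CPM 7.45%. No replicate could be left out. No paired analysis was possible because each group has 1 library. Counting error for ACAD8, with 127 and 171 counts, spans from -0.59 to 0.10 as reported, and whether it holds 0 depends on the scaling.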
